A study of Homo sapiens with 12 samples.

Results

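Genes of the heat shock protein, DNAJ and TRiC chaperone families were followed from human embryonic stem cells to neural progenitors, in RNA and on ribosomes. Members were taken by gene symbol, from families chosen with earlier results of these data known: the HSPA, HSP90, HSPB and HSPD1/HSPE1 heat shock proteins, DNAJ genes of classes A, B and C, and TCP1 with the CCT genes, numbered symbols only and no pseudogenes. The rule found 80 of the 59050 symbols counted. They were 16 HSPA genes (HSPH1 included, as an HSP110 protein), 3 HSP90 genes, 8 HSPB genes, HSPD1 and HSPE1, 4 DNAJA, 13 DNAJB and 26 DNAJC genes and the 8 subunits of TRiC.

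The cells were of the embryonic stem cell line HUES8, wild type in every sample, so the results describe a single line. The stem cells (ESC) were kept in mTeSR1 medium. Neural progenitor cells (NPC) came from them after 7 days of induction with 2 small molecules, 2.5 uM SB431542 against the activin and Nodal receptors and 0.05 uM LDN193189 against the receptors for BMP, with SB431542 withdrawn for the last 2 days. RNA and ribosome-bound RNA (RIBO in the library names) were each sequenced in 3 libraries of each state, 12 libraries in all. Nothing in the labels says that replicates were separate cultures, so every p-value measures the spread between these libraries, which may be technical. The labels held against markers: summed over 8 stem cell markers, RNA was 10633 to 11342 CPM (counts scaled to the library's total) in ESC and 5146 to 5278 CPM in NPC, and over 8 neural progenitor markers 115 to 123 CPM and 882 to 905 CPM. Of the stem cell markers 7 fell and 0 rose in RNA, and of the neural progenitor markers 8 rose and 0 fell. Markers of other cell types moved too. Neural crest markers summed to 8.30 to 16.8 CPM in ESC and 169 to 171 CPM in NPC, where 3 of the 4 rose and 1 fell. Neuron markers summed to 19.0 to 19.8 CPM and 9.32 to 10.9 CPM, where 1 rose and 3 fell of 5 tested. Mesoderm and endoderm markers summed to 11.5 to 12.3 CPM and 0.398 to 0.499 CPM (259 to 270 CPM and 2.28 to 3.97 CPM in ribosome-bound RNA). The part of such cells in the results below was not tested.

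Chaperones bind proteins that are not yet folded, or have lost their fold. HSP70 proteins (HSPA genes) work in cycles of ATP binding and release, J-domain proteins (DNAJ genes) bring them substrates and start ATP hydrolysis, and HSP110 proteins release the spent nucleotide. HSP90 acts later, on kinases and receptors near their native fold, whereas TRiC and the mitochondrial HSPD1/HSPE1 pair enclose a substrate in a barrel, tubulin and actin being the best known substrates of TRiC. Heat shock factors drive many of these genes through heat shock elements, and the unfolded protein response drives those of the endoplasmic reticulum (ER) through ER stress elements.

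Those elements are shown here because they are the sequence features by which members of different families are known to be switched on together. Promoter windows of RefSeq (build GRCh38.p14) span 300 bases, 250 before a transcription start and 50 after it, and 91 such windows belonged to 70 of the 80 members. A heat shock element of 3 alternating units, TTCNNGAANNTTC or GAANNTTCNNGAA (each the reverse complement of the other, so both strands were searched), was in 7 of the 91 windows (7.69%) and in 172 of 35116 windows of the whole table (0.49%). The windows were those of DNAJA1, DNAJB6, HSP90AA1, HSP90AB1, HSPA6, HSPA8 and HSPD1. Capitals mark the element, and for HSPD1 a pair of overlapping matches. In DNAJA1 the match lay after the start and is not printed.

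HSPA8: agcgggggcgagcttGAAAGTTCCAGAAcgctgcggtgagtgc

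HSPA6: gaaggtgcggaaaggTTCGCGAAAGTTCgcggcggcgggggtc

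HSP90AA1: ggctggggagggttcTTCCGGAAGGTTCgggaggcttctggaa

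HSP90AB1: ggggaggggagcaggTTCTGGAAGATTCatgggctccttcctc

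DNAJB6: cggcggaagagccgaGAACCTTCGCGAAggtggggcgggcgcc

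HSPD1: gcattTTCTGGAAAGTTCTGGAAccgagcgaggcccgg

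The lines read 5′ to 3′ along the gene and lie at chr11:123062339-123062381 on the minus strand for HSPA8, chr1:161524451-161524493 on the plus strand for HSPA6, chr14:102087105-102087147 on the minus strand for HSP90AA1, chr6:44247763-44247805 on the plus strand for HSP90AB1, chr7:157336858-157336900 on the plus strand for DNAJB6 and chr2:197500053-197500090 on the minus strand for HSPD1. The element ended 217 bases before the start in HSPA8, 61 in HSPA6, 75 in HSP90AA1, 152 in HSP90AB1, 118 in DNAJB6 and 227 in HSPD1. HSPA8 and HSP90AB1 each held a second match in the same window. The ER stress element, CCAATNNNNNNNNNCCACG on either strand, was in 2 of the 91 windows (2.2%), against 27 of 35116 (0.0769%), and both belonged to ER chaperones.

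HSPA5: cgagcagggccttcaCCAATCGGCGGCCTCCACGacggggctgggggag

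HSP90B1: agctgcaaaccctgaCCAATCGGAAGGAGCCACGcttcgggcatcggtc

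These lie at chr9:125241376-125241424 on the minus strand for HSPA5 and chr12:103930201-103930249 on the plus strand for HSP90B1, 47 and 175 bases before the start. HSP90B1 held a second match. A TATA box, TATAAA on either strand, was in 12 of the 91 windows (13.2%) and in 4049 of 35116 (11.5%). It stood 24 and 23 bases before the start in HSPA1A and HSPA1B, the stress-inducible HSP70 genes, and 23 and 22 bases before it in HSPB6 and HSPB7. A match of letters is a description of the window and not evidence that a factor was bound in these cells. Only exact matches within the window were counted, so a member without a match may still hold such an element.

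Total counts were 19529738 to 35117370 in the RNA libraries and 2422756 to 4451196 in the ribosome-bound libraries, so ribosome-bound values of low genes carry more counting error. Among ESC libraries, RNA_ESC replicate 3 and RIBO_ESC replicate 2 stood apart. Across genes, log2 CPM of RNA_ESC replicate 3 correlated at 0.980 and 0.976 with its fellow replicates, which correlated at 0.996 with each other. For RIBO_ESC replicate 2 the values were 0.927 and 0.940, against 0.976. Chaperones were among the genes that set these libraries apart. In RIBO_ESC replicate 2, HSPA8 was at 401 CPM, against 1392 and 1278 CPM in replicates 1 and 3. HSPH1, HSPA4, HSP90AA1 and HSP90AB1 were low there as well. All 8 TRiC subunits were below the mean of replicates 1 and 3, with a median log2 difference of -0.77 (0.5 CPM added to each value). In contrast, 6 of the 8 ER members were above it, with a median of 0.29. Over all genes tested the median was -0.08. In RNA_ESC replicate 3, 48 of 70 members were above the mean of the other ESC libraries, with a median of 0.29 against 0.03 for all genes, whereas HSPB1 was at a log2 difference of -1.98. The part of these libraries in the results was measured by leaving them out. It is given beside results whose call it changed, though not for every one.

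**Figure D1:**
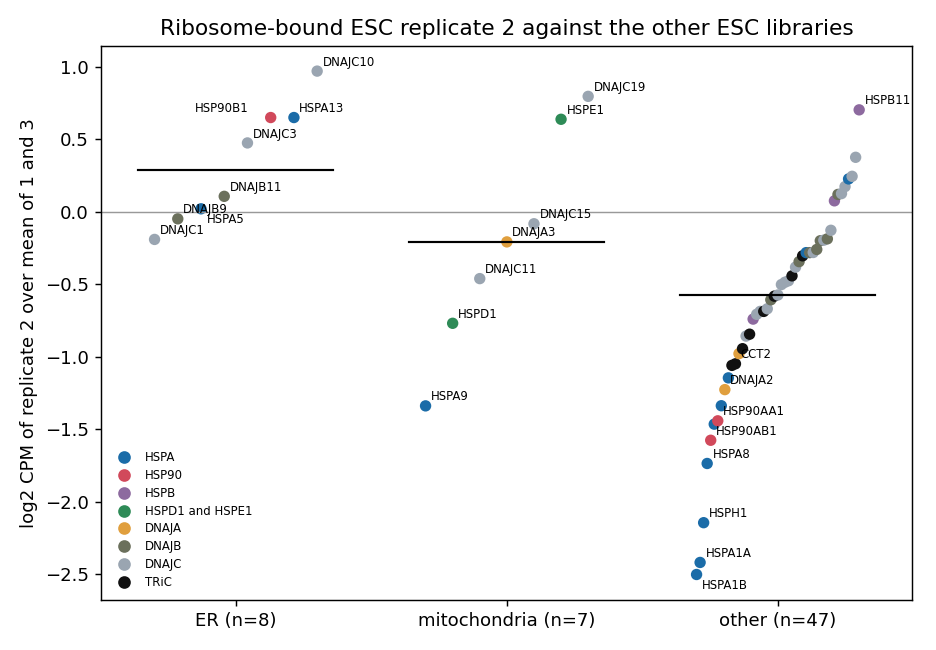
Members tested in ribosome-bound RNA, in ESC replicate 2. The y axis is the log2 of CPM in replicate 2 over the mean CPM of replicates 1 and 3 (0.5 CPM added), each point is a gene coloured by family, and black lines are medians: 0.29 for the 8 ER members, -0.21 for the 7 mitochondrial members and -0.57 for the 47 others. The ER and mitochondrial members are fixed lists that need not hold every member of that organelle.

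More members fell than rose on the way to NPC, in RNA and on ribosomes. Fold changes are NPC over ESC on the log2 scale with their standard errors, and adjusted p is the Benjamini-Hochberg value of edgeR's quasi-likelihood test over all genes tested, with a threshold of 0.05. In RNA, 70 members passed the filter on low counts, of which 10 rose and 26 fell, 51.4% in all, where 52.6% of 18631 genes changed (26.4% rose and 26.2% fell). In ribosome-bound RNA, 62 passed, of which 11 rose and 25 fell, 58.1% in all, where 61.8% of 12250 genes changed (31.6% rose and 30.3% fell). The share of members that changed was thus near the background in both assays. Over all genes rises and falls were nearly equal in number, and among members falls were the more frequent, a difference that was not tested. The median log2 fold change of the members was -0.13 in RNA and -0.30 in ribosome-bound RNA, against 0.03 and -0.01 over all genes tested. Translational efficiency, the ratio of ribosome-bound RNA to RNA, was tested by an interaction term in a fit to all 12 libraries and is relative, because each library is scaled to its own total. It rose for 10 of 62 members and fell for 19 (46.8%), where 41.9% of 11866 genes changed (22.9% rose and 19.0% fell). Single libraries moved some of these counts by over 1.5 times. In RNA, 16 rose without ESC replicate 3 and 6 without ESC replicate 1. Efficiency fell for 11 without RNA_ESC replicate 1, 11 without RNA_ESC replicate 2, 12 without RNA_NPC replicate 2, 10 without RNA_NPC replicate 3, 11 without RIBO_ESC replicate 3, and 12 without RIBO_NPC replicate 1 or 3. In bulk samples fewer cells of a type and less RNA per cell cannot be told apart.

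Counts differed by family, and these differences were not tested. Among the 43 DNAJ genes, 8 rose and 10 fell of the 40 tested in RNA, 10 rose and 11 fell of 34 on ribosomes, and efficiency rose for 10 and fell for 10. Among the 37 other members, 2 rose and 16 fell of the 30 tested in RNA, 1 rose and 14 fell of 28 on ribosomes, and efficiency rose for 0 and fell for 9. Of the 62 members tested in both assays, 11 fell in both, 1 (DNAJC15) rose in both, and 12 passed in neither. DNAJC2 and DNAJC8 fell in RNA and rose on ribosomes, and HSPB11, DNAJB2 and DNAJB9 did the reverse. The members as a whole took 1.70% ± 0.19 (SD, n = 3) of RNA counts in ESC and 1.43% ± 0.038 in NPC, and 1.42% ± 0.34 and 1.29% ± 0.062 of ribosome-bound counts.

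**Figure D2:**
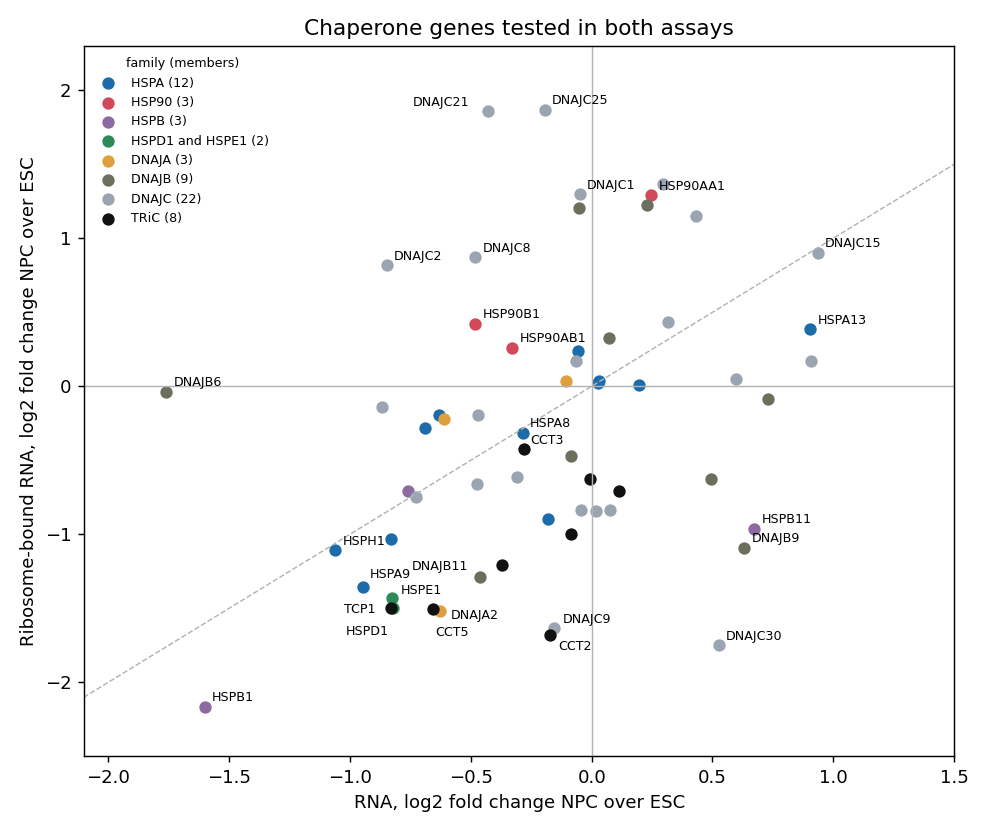
Log2 fold changes of NPC over ESC for the 62 members tested in both assays, RNA on the x axis and ribosome-bound RNA on the y axis, each point a gene coloured by family. The dashed line marks equal change. All 8 TRiC subunits (black) lie below 0 on the y axis, between -1.68 and -0.43, and DNAJC genes (grey) spread from -1.75 to 1.87. The ends of that spread, DNAJC30 and DNAJC25, passed the filter on low counts through the state where they were higher and are a description.

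The cytosolic chaperonin TRiC fell on ribosomes as a group. It is built from 8 different subunits in equal number, and 7 of the 8 fell in ribosome-bound RNA, with a median log2 fold change of -1.11 over the 8. Only 3 subunits fell in RNA (TCP1, CCT5 and CCT6A), where the median was -0.23, and efficiency fell for 7, with a median of -0.88, although for only 2 to 4 of the 8 without most single libraries. The summed level of the subunits in ribosome-bound RNA was 4357, 2422 and 4241 CPM in ESC and 1472, 2053 and 1706 CPM in NPC, so all NPC libraries were below all ESC libraries, and ESC replicate 2 was the ESC library nearest to them. In RNA the sums were 3626, 3479 and 4034 CPM in ESC and 3087, 3178 and 3254 CPM in NPC.

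CCT2, the beta subunit, fell furthest on ribosomes, at 716, 330.2 and 651 CPM in ESC and 138, 210.1 and 166 CPM in NPC. Its log2 fold change was -1.68 ± 0.28 (adjusted p = 0.000277), with no overlap between the states. In RNA the same gene was at 271, 282 and 275 CPM in ESC and 230.3, 267 and 272 CPM in NPC, which did not pass (-0.17 ± 0.10, adjusted p = 0.166), and its efficiency fell, at -1.56 ± 0.31 (adjusted p = 0.00096). CCT5, the epsilon subunit, was at 1213, 599.7 and 1095 CPM in ESC and 256, 403 and 337 CPM in NPC on ribosomes, every NPC library below every ESC library. It fell there, at -1.504 ± 0.27 (adjusted p = 0.000547). In RNA, CCT5 was at 635, 588 and 775 CPM in ESC and 434, 442 and 452 CPM in NPC, a fold change of -0.66 ± 0.10 (adjusted p = 0.00118). TCP1, the alpha subunit that gave the complex its name, was at 157, 135 and 176 CPM in ESC and 49.2, 60.1 and 53.02 CPM in NPC on ribosomes. In RNA it was at 499, 448 and 686 CPM in ESC and 308, 315 and 337 CPM in NPC. Both assays separated the states without overlap, with fold changes of -1.495 ± 0.19 (adjusted p = 3.61e-05) and -0.83 ± 0.14 (adjusted p = 0.00183).

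CCT6A, the zeta subunit, was at 277, 195 and 307 CPM in ESC and 83.1, 144 and 102 CPM in NPC on ribosomes, a fold change of -1.21 ± 0.24 (adjusted p = 0.000877). In RNA it was at 239.9, 226 and 316 CPM in ESC and 197, 205 and 230.2 CPM in NPC, with overlap (NPC replicate 3 lay above ESC replicate 2), and -0.37 ± 0.13 (adjusted p = 0.0426). Pseudogene symbols of CCT6A held 4.49% and 6.89% as many counts as the gene in RNA in ESC and NPC, and 0.659% and 3.08% on ribosomes. CCT7, the eta subunit, overlapped in RNA, at 671, 664 and 646 CPM in ESC and 659, 656 and 641 CPM in NPC (-0.09 ± 0.08, adjusted p = 0.387). On ribosomes CCT7 was at 540.2, 334 and 534 CPM in ESC and 181, 279.9 and 224 CPM in NPC, a fold change of -1.001 ± 0.23 (adjusted p = 0.00298), and its efficiency changed by -0.96 ± 0.26 (adjusted p = 0.00778). CCT4, the delta subunit, was at 345, 175 and 383 CPM in ESC and 136, 231 and 169.8 CPM in NPC, where NPC replicate 2 lay above ESC replicate 2, with a fold change of -0.71 ± 0.28 (adjusted p = 0.0431). CCT8, the theta subunit, was at 229, 166 and 223 CPM in ESC and 105, 151 and 135 CPM in NPC, without overlap, and -0.62 ± 0.20 (adjusted p = 0.0174). In RNA, CCT4 stood at 452, 419 and 529 CPM in ESC and 509, 534 and 543 CPM in NPC. CCT8 was at 204, 176 and 254 CPM in ESC and 204, 213 and 243 CPM in NPC in RNA, and neither passed (0.11 ± 0.10, adjusted p = 0.356 and -0.01 ± 0.14, adjusted p = 0.975). CCT3, the gamma subunit, was the exception on ribosomes. Its 879.7, 488 and 871 CPM in ESC and 523, 574 and 519 CPM in NPC overlapped, and the change of -0.43 ± 0.24 (adjusted p = 0.143) did not pass. In RNA it was at 655, 678 and 553 CPM in ESC and 546, 545 and 537 CPM in NPC (-0.28 ± 0.11, adjusted p = 0.0581).

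Leaving out RIBO_ESC replicate 2 made the ribosomal fall of TRiC larger and complete: all 8 subunits fell, the median was -1.27, and CCT3 passed at -0.65 (adjusted p = 0.000149). Over all single libraries left out, 5 to 8 subunits fell on ribosomes and the median ran from -1.27 to -0.96. CCT4 passed in neither of the fits without ESC replicate 1 (-0.62, adjusted p = 0.0949) and without ESC replicate 3 (-0.52, adjusted p = 0.175), nor without NPC replicates 1 (-0.55, adjusted p = 0.184) and 3 (-0.65, adjusted p = 0.15). CCT8 lost its call without ESC replicate 3 and without NPC replicates 1 and 3, its adjusted p then being 0.0602, 0.112 and 0.074. The efficiency count rested on all libraries together. It was 2 of 8 without RNA_ESC replicate 1 or 2, RNA_NPC replicate 3, RIBO_ESC replicate 3, or RIBO_NPC replicate 1 or 3. It was 3 without RNA_NPC replicate 1 or 2, 4 without RIBO_ESC replicate 1, 4 with no filter on low counts, 6 with the replicate block (CCT4 then at adjusted p = 0.0578), and 7 without RNA_ESC replicate 3, RIBO_ESC replicate 2 or RIBO_NPC replicate 2. The median stayed between -1.07 and -0.73 with 1 library left out, and CCT2 and CCT7 passed in every alternative fit. Without both libraries that stood apart, efficiency fell for all 8, with a median of -1.16. In RNA, CCT6A lost its call without any of 4 libraries (ESC replicate 1 and each NPC library, adjusted p from 0.0584 to 0.152). Without RNA_ESC replicate 3, 5 subunits fell in RNA, CCT3 and CCT2 being the added ones, at -0.38 (adjusted p = 2.06e-07) and -0.20 (adjusted p = 0.00772), and CCT4 rose by 0.19 (adjusted p = 0.00616).

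**Figure D3:**
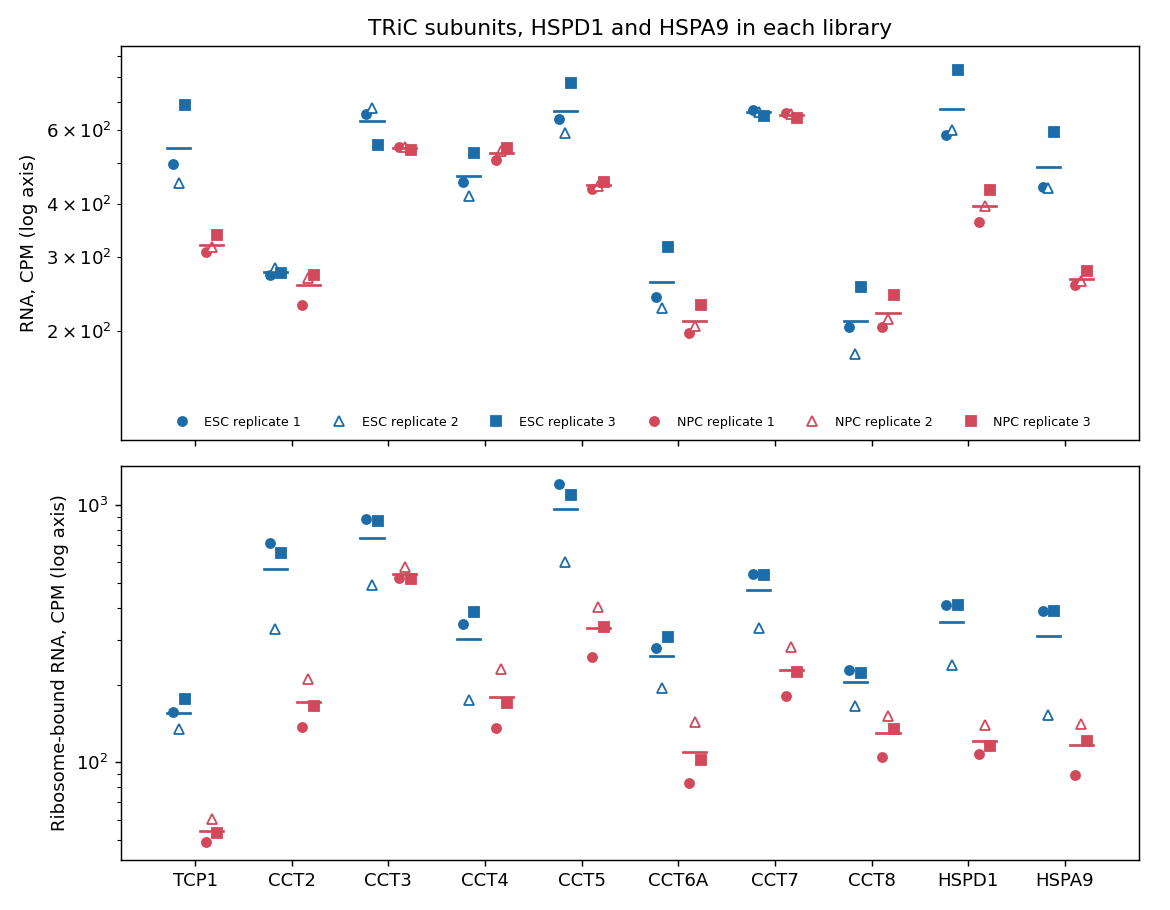
CPM of the TRiC subunits, HSPD1 and HSPA9 in each library (log axes), RNA above and ribosome-bound RNA below, ESC in blue and NPC in red, with circles, open triangles and squares for replicates 1, 2 and 3 and lines for the mean of 3. In ribosome-bound RNA the open blue triangle, ESC replicate 2, is the lowest ESC point for all 10 genes, and CCT3 and CCT4 are the genes of this plot where it lies below an NPC point.

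Partners of TRiC moved in both directions. Prefoldin hands nascent chains to TRiC, tubulin cofactors take tubulin from it, and phosducin-like proteins regulate it. Of 13 such genes, 4 rose and 2 fell on ribosomes, 2 rose and 3 fell in RNA, and efficiency rose for 4 (PFDN2, PFDN4, TBCA and PDCL3) and fell for 0. Their median log2 fold change was 0.01 on ribosomes, against -1.11 for the TRiC subunits, and the difference between these medians was not tested. The prefoldin subunit PFDN4 rose by 1.23 on ribosomes and PFDN6 fell by 1.44.

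HSPD1 and HSPA9, chaperones of the mitochondrial matrix, fell in both assays, and HSPE1, of the same compartment, fell in RNA. HSPD1, the mitochondrial chaperonin HSP60, was at 583, 599 and 832 CPM in ESC and 363, 395 and 431 CPM in NPC in RNA. On ribosomes HSPD1 was at 409.9, 239.8 and 408 CPM in ESC and 108, 140.4 and 116 CPM in NPC. The states did not overlap in either assay, and the fold changes were -0.82 ± 0.14 (adjusted p = 0.00155) and -1.497 ± 0.23 (adjusted p = 0.000161). HSPE1, its lid HSP10, was at 37.00, 38.8 and 40.6 CPM in ESC and 23.01, 23.1 and 22.6 CPM in NPC in RNA, a fold change of -0.83 ± 0.11 (adjusted p = 0.000383). On ribosomes it had few counts, 71 in all ESC libraries and 32 in all NPC libraries, at 6.52, 10.7 and 6.93 CPM in ESC and 3.05, 3.42 and 2.25 CPM in NPC and -1.43 ± 0.39 (adjusted p = 0.00742). HSPE1 passed the filter on low counts there through the ESC libraries, so that fall is given as a description. Symbols of HSPE1 pseudogenes, 26 in the table, held 3.44% and 6.32% as many counts as the gene in RNA in ESC and NPC, and 11.3% and 3.12% on ribosomes. HSPA9, the HSP70 that pulls proteins through the inner membrane and folds them in the matrix, was at 439.5, 436 and 594 CPM in ESC and 257, 262 and 277 CPM in NPC in RNA. On ribosomes HSPA9 was at 386, 153 and 389 CPM in ESC and 89.2, 141 and 121 CPM in NPC. It fell, at -0.95 ± 0.12 (adjusted p = 0.000396) and -1.36 ± 0.31 (adjusted p = 0.00242), again with no overlap. The falls of HSPD1 and HSPA9 in both assays, and that of HSPE1 in RNA, passed in each of the alternative fits. Efficiency did not pass for HSPD1 (-0.72 ± 0.29, adjusted p = 0.0551) or HSPA9 (-0.45 ± 0.37, adjusted p = 0.334) with all libraries, and passed without RIBO_ESC replicate 2, at -0.90 (adjusted p = 0.00439) and -0.75 (adjusted p = 0.0158). For HSPD1 it passed as well without RNA_ESC replicate 3 (-0.91, adjusted p = 0.00999), with DESeq2 (-0.78, adjusted p = 0.0139) and with RLE size factors (adjusted p = 0.0324).

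J-domain proteins of the same organelle were less uniform. DNAJA3, the J-domain partner of HSPA9 in the matrix, fell in RNA (-0.61 ± 0.10, adjusted p = 0.00105) and was at -0.22 ± 0.19 (adjusted p = 0.317) on ribosomes. DNAJC11, a mitochondrial membrane protein, was at 160.3, 164 and 125 CPM in ESC and 90.5, 85.7 and 82.6 CPM in NPC in RNA, a fold change of -0.87 ± 0.14 (adjusted p = 0.00103). On ribosomes its states overlapped, at 203, 144 and 194 CPM in ESC and 156, 160.0 and 162 CPM in NPC, and its efficiency rose (0.67 ± 0.22, adjusted p = 0.0221), a call lost without any of 4 RNA libraries (ESC replicates 1 and 2 and NPC replicates 2 and 3, adjusted p from 0.0517 to 0.0629). DNAJC15, which stimulates the import motor at the inner membrane, was the only member that rose in both assays. It was at 4.48, 3.996 and 5.53 CPM in ESC and 9.13, 9.34 and 9.48 CPM in NPC in RNA (0.94 ± 0.15, adjusted p = 0.00142). On ribosomes DNAJC15 was at 6.84, 6.604 and 7.21 CPM in ESC and 12.5, 10.5 and 14.6 CPM in NPC (0.90 ± 0.28, adjusted p = 0.014), above ESC in every NPC library, and the ribosomal call was lost without NPC replicate 3 (0.80, adjusted p = 0.0639). DNAJC19, which acts at the same motor, passed in neither with all libraries. It fell in RNA without ESC replicate 3 (-0.325, adjusted p = 0.0168). The mitochondrial set was HSPA9, HSPD1, HSPE1, DNAJA3, DNAJC11, DNAJC15 and DNAJC19. It was a fixed list that need not hold every member found in that organelle, and DNAJC30 was not counted in it. Of these 7 members, 1 rose and 5 fell in RNA and 1 rose and 3 fell on ribosomes, where the fall of HSPE1 is a description. Their summed RNA was 1469 ± 210 CPM (SD, n = 3) in ESC and 862 ± 39.1 CPM in NPC, and their summed ribosome-bound RNA 918 ± 264 CPM and 462 ± 46.7 CPM. Among 8 other genes of mitochondrial protein quality control, 2 rose and 4 fell on ribosomes, with the matrix protease LONP1 up by 1.23 and the protease subunit CLPP down at -1.45, and 1 rose and 1 fell in RNA.

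HSP90AA1 rose on ribosomes and HSP90AB1 fell in RNA. HSP90AA1, the inducible form, was at 1249, 433 and 1106 CPM in ESC and 2239.6, 2466 and 1879 CPM in NPC on ribosomes. Every NPC library lay above every ESC library, and it rose by 1.29 ± 0.34 (adjusted p = 0.0055). Without RIBO_ESC replicate 2, its lowest library, it still rose. In RNA it was at 629.7, 702 and 1132 CPM in ESC and 935, 997 and 1118 CPM in NPC, with overlap through ESC replicate 3, and 0.25 ± 0.20 (adjusted p = 0.322). Without that library it rose in RNA as well, by 0.52 (adjusted p = 7.86e-10). HSP90AB1, the constitutive form, went the other way in RNA, at 3609, 3572 and 4202 CPM in ESC and 3172, 3094 and 3220.4 CPM in NPC. All NPC libraries were lower, by a modest fold change of -0.33 ± 0.08 (adjusted p = 0.00976), a call lost without NPC replicate 2 (-0.31, adjusted p = 0.0526). On ribosomes its 2242, 739 and 2164 CPM in ESC and 1892, 2077 and 1965 CPM in NPC overlapped, with NPC between ESC replicate 2 and the other ESC libraries (0.26 ± 0.34, adjusted p = 0.529).

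Within a library, the ratio of HSP90AA1 to HSP90AB1 counts is free of scaling between libraries. On ribosomes it was 0.557, 0.587 and 0.511 in ESC and 1.18, 1.19 and 0.956 in NPC. RIBO_ESC replicate 2, in which both genes were low, gave a ratio like those of its fellow ESC libraries. In RNA the ratio was 0.174, 0.196 and 0.269 in ESC and 0.295, 0.322 and 0.347 in NPC. NPC exceeded ESC in every library of both assays, and 3 libraries against 3 cannot reach an exact two-sided permutation p below 0.1. Pseudogene symbols of HSP90AB1 held 1.21% as many counts as the gene on ribosomes in ESC and 3.82% in NPC, so its ribosome-bound values are less certain than those of HSP90AA1 (0.214% and 0.197%). Of 11 genes around HSP90, which are 10 co-chaperones and TRAP1, the HSP90 of mitochondria, 7 fell and 0 rose in RNA, and 2 rose and 5 fell on ribosomes. FKBP5, an immunophilin that binds HSP90 with steroid receptors, rose on ribosomes by 2.33, and CDC37, which loads kinases onto HSP90, by 0.94. The cyclophilin PPID fell by 2.37 on ribosomes and AHSA1, the activator of the HSP90 ATPase, fell by 1.22.

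More HSP70 genes fell than rose in RNA. Of 14 HSPA genes tested, 8 fell and 1 rose, with a median of -0.46, and on ribosomes 3 of 12 fell and 0 rose, with a median of -0.24. In RNA 5 fell without NPC replicate 1 or 2. Without RIBO_ESC replicate 2, 6 HSPA genes fell on ribosomes with a median of -0.55, and without RIBO_ESC replicate 1 the ribosomal median was 0.004. HSPA8, the constitutive cytosolic HSP70, was at 3389.6, 3304 and 3996 CPM in ESC and 3003, 3036 and 3151 CPM in NPC in RNA, lower in every NPC library (-0.28 ± 0.09, adjusted p = 0.0231). Leaving out any NPC library ended that call, with adjusted p from 0.0699 to 0.09. On ribosomes HSPA8 was at 1392, 401 and 1278 CPM in ESC and 707, 909 and 764 CPM in NPC, and ESC replicate 2 lay below all NPC libraries. The change of -0.32 ± 0.36 (adjusted p = 0.464) did not pass, and without that library it was -0.70 (adjusted p = 0.000115). Symbols of HSPA8 pseudogenes, 17 in the table, held 9.40% and 7.34% as many counts as the gene on ribosomes in ESC and NPC, against 0.0816% and 0.0709% in RNA.

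The 3 HSP110 proteins, exchange factors of HSP70, all fell in RNA. HSPH1 was at 77.7, 87.1 and 121 CPM in ESC and 45.8, 45.1 and 52.1 CPM in NPC, without overlap, a fold change of -1.06 ± 0.16 (adjusted p = 0.000897). On ribosomes HSPH1 was at 115, 26.4 and 121 CPM in ESC and 34.8, 39.01 and 44.3 CPM in NPC. ESC replicate 2 was the lowest of these 6 libraries, and the fold change of -1.11 ± 0.40 (adjusted p = 0.0304) was kept only when it was the library left out. The other 5 fits gave adjusted p from 0.0692 to 0.13. HSPA4 was at 309.8, 306 and 401 CPM in ESC and 213, 218 and 256 CPM in NPC in RNA, again without overlap (-0.63 ± 0.12, adjusted p = 0.00331). On ribosomes its 820.1, 312 and 760.3 CPM in ESC and 466, 604 and 532 CPM in NPC overlapped (-0.19 ± 0.30, adjusted p = 0.598), and without ESC replicate 2 it fell, at -0.51 (adjusted p = 0.00229). HSPA4L, with lower counts, fell in RNA (-0.69 ± 0.21, adjusted p = 0.0254), and that call was lost without NPC replicate 1 (-0.69, adjusted p = 0.0764) and without NPC replicate 2 (-0.56, adjusted p = 0.105).

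The stress-inducible HSP70 genes HSPA1A and HSPA1B are near-identical copies, so the split of reads between them is uncertain. HSPA1A was at 15.1, 17.6 and 7.17 CPM in ESC and 15.6, 15.7 and 17.01 CPM in NPC in RNA. HSPA1B was at 28.7, 29.97 and 13.3 CPM in ESC and 14.9, 14.7 and 13.2 CPM in NPC. In both genes ESC replicate 3 was the lowest ESC library, and for HSPA1B the states overlapped through it. HSPA1B passed as a fall (-0.83 ± 0.29, adjusted p = 0.0446), and any other library left out ended the call. On ribosomes HSPA1A was at 8.15, 1.24 and 9.43 CPM in ESC and 5.498, 8.54 and 5.17 CPM in NPC. HSPA1B was at 13.4, 1.65 and 9.98 CPM in ESC and 3.05, 3.702 and 5.17 CPM in NPC there, with ESC replicate 2 far below its fellows in both, and neither passed (0.01 ± 0.50, adjusted p = 0.986 and -1.03 ± 0.53, adjusted p = 0.109). HSPA1B fell without that library, at -1.46 (adjusted p = 0.000739). HSPA6, which is induced by strong stress, had 4 counts in all ESC and 13 in all NPC libraries in RNA and 0 on ribosomes, where 3 counts would be 0.674 to 1.24 CPM. HSPA2, a HSP70 best known from testis, passed in neither assay, at 22.9, 21.8 and 15.8 CPM in ESC and 21.7, 21.8 and 21.4 CPM in NPC in RNA. On ribosomes HSPA2 was at 34.9, 14.4 and 30.2 CPM in ESC and 19.2, 27.6 and 31.9 CPM in NPC.

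HSPA14, which sits with DNAJC2 at the ribosomal tunnel exit as the ribosome-associated complex, parted from its partner. On ribosomes HSPA14 was at 75.6, 63.1 and 78.2 CPM in ESC and 35.4, 39.01 and 39.1 CPM in NPC, without overlap, a fold change of -0.90 ± 0.18 (adjusted p = 0.00106). DNAJC2 was at 33.9, 27.6 and 33.5 CPM in ESC and 52.5, 58.7 and 53.02 CPM in NPC there, a rise of 0.82 ± 0.18 (adjusted p = 0.00223). In RNA, HSPA14 was at 56.9, 57.7 and 67.1 CPM in ESC and 49.5, 58.4 and 59.9 CPM in NPC and did not pass (-0.18 ± 0.12, adjusted p = 0.231). DNAJC2 fell in RNA, at 16.2, 19.4 and 28.1 CPM in ESC and 12.9, 11.4 and 12.6 CPM in NPC (-0.85 ± 0.20, adjusted p = 0.00744). Efficiency fell for HSPA14 (-0.77 ± 0.21, adjusted p = 0.00998) and rose for DNAJC2 (1.63 ± 0.28, adjusted p = 0.000326), and all but the RNA value of HSPA14 passed in every alternative fit. HSPA12B and HSPA1L also fell in RNA, HSPA12A passed in neither assay, and HSPA7 had 1 count in all. Of 13 co-chaperones of HSP70, 1 rose and 5 fell in RNA and 1 rose and 7 fell on ribosomes. SIL1, the exchange factor of the ER, rose in both, by 1.71 in RNA and 1.54 on ribosomes.

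ER chaperones did not move as a group. The ER set was HSPA5, HSPA13, HSP90B1, DNAJB9, DNAJB11, DNAJC1, DNAJC3 and DNAJC10. It was a fixed list that need not hold every member found in the ER. DNAJB14, an ER membrane protein with its J domain in the cytosol, was not counted in it. Of these 8, 2 rose and 1 fell in RNA, 1 rose and 4 fell on ribosomes, and their summed ribosome-bound RNA was 3499.8 ± 412 CPM (SD, n = 3) in ESC and 3975 ± 371 CPM in NPC. HSPA5, the HSP70 of the ER known as BiP, was at 669, 629 and 846 CPM in ESC and 716, 719 and 723 CPM in NPC in RNA. On ribosomes HSPA5 was at 1854, 1888 and 1869.9 CPM in ESC and 2294, 1968 and 2196 CPM in NPC. On ribosomes every NPC library lay above every ESC library, yet the changes were small and passed in neither assay (-0.06 ± 0.11, adjusted p = 0.692 and 0.24 ± 0.23, adjusted p = 0.385). HSP90B1, the HSP90 of the ER, was at 285, 330.5 and 497 CPM in ESC and 274, 266 and 292 CPM in NPC in RNA, where ESC replicate 3 was high (-0.48 ± 0.18, adjusted p = 0.0517). It fell without that library, at -0.24 (adjusted p = 0.00111), and with the replicate number as a block, at -0.45 (adjusted p = 0.0227). It also passed as a fall without ESC replicate 1 (-0.67, adjusted p = 0.0193), with DESeq2 (adjusted p = 0.037), with RLE size factors (0.0498) and with no filter on low counts (0.0081). On ribosomes its 835, 1404 and 955 CPM in ESC and 1645, 1334 and 1234 CPM in NPC overlapped through ESC replicate 2, which was high (0.42 ± 0.28, adjusted p = 0.2). Without that library it rose by 0.71 (adjusted p = 0.000304).

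HSPA13, a HSP70-like protein of the microsome, rose in RNA in every NPC library, from 27.2, 26.97 and 37.9 CPM to 57.02, 58.01 and 65.1 CPM (0.90 ± 0.15, adjusted p = 0.00132). On ribosomes HSPA13 was at 109, 168 and 104 CPM in ESC and 179, 142 and 167 CPM in NPC (0.39 ± 0.24, adjusted p = 0.189), and it rose there without ESC replicate 2, by 0.67 (adjusted p = 0.000125). DNAJB11, a J-domain partner of HSPA5 that binds unfolded clients, was at 216, 243 and 235 CPM in ESC and 94.7, 87.7 and 95.3 CPM in NPC on ribosomes, a fold change of -1.29 ± 0.19 (adjusted p = 0.000119). In RNA it was at 35.2, 35.9 and 55.1 CPM in ESC and 30.4, 29.7 and 35.7 CPM in NPC and did not pass (-0.46 ± 0.18, adjusted p = 0.062). With the replicate block DNAJB11 fell in RNA (-0.44, adjusted p = 0.0233). It also fell there without ESC replicate 3 (-0.24, adjusted p = 0.00837) or 2 (-0.59, adjusted p = 0.0495), with DESeq2 (0.0409) and with no filter (0.0347). DNAJB9, a J-domain protein that represses the stress sensor ERN1, went opposite ways, at 10.7, 11.8 and 13.1 CPM in ESC and 17.7, 17.6 and 22.3 CPM in NPC in RNA. On ribosomes DNAJB9 was at 7.49, 9.91 and 13.03 CPM in ESC and 5.498, 4.27 and 4.27 CPM in NPC. It rose in RNA (0.63 ± 0.15, adjusted p = 0.00809) and fell on ribosomes (-1.09 ± 0.34, adjusted p = 0.0145), and its efficiency fell (-1.78 ± 0.35, adjusted p = 0.000919). The RNA call was lost without ESC replicate 1 (0.53, adjusted p = 0.0501) and the ribosomal call without ESC replicate 3 or NPC replicates 2 or 3 (adjusted p from 0.0597 to 0.0783).

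DNAJC1, an ER membrane protein that reaches translating ribosomes, rose on ribosomes, at 27.7, 21.1 and 20.5 CPM in ESC and 62.6, 52.4 and 50.8 CPM in NPC. The states did not overlap (1.30 ± 0.21, adjusted p = 0.000258), while its RNA was at 5.31, 6.84 and 7.48 CPM in ESC and 7.21, 6.15 and 6.52 CPM in NPC (-0.05 ± 0.17, adjusted p = 0.816) and its efficiency rose (1.30 ± 0.28, adjusted p = 0.00166). DNAJC3, an inhibitor of the kinase EIF2AK2, fell in RNA (-0.47 ± 0.14, adjusted p = 0.0207) and on ribosomes (-0.66 ± 0.23, adjusted p = 0.0249), and DNAJC10, a disulfide reductase, fell on ribosomes (-0.84 ± 0.30, adjusted p = 0.0303). These calls depended on single libraries: that of DNAJC3 in RNA was lost without any NPC library (adjusted p from 0.0568 to 0.089) and on ribosomes without ESC replicate 3 or any NPC library (0.051 to 0.12), and that of DNAJC10 without NPC replicate 2 or 3 (0.13 and 0.0781). ESC replicate 2 held the highest ribosomal value of DNAJC10, 100.3 CPM against 46.3 and 55.7 CPM. In RNA DNAJC10 did not pass with all libraries, and rose without RNA_ESC replicate 3 (0.19, adjusted p = 0.0159). Its efficiency did not pass either (-0.83, adjusted p = 0.0989). That efficiency fell without RNA_ESC replicate 3 (-1.10, adjusted p = 0.024), without RIBO_ESC replicate 1 (-1.07, adjusted p = 0.0334) and without both libraries that stood apart (-0.66, adjusted p = 0.0019). Of 16 other genes of ER folding and the unfolded protein response, 3 rose and 6 fell in RNA, and of 15 tested on ribosomes 1 rose and 4 fell. The stress factor DDIT3 rose in RNA by 1.41, whereas the disulfide isomerase PDIA4 fell by 0.58 in RNA and fell by 1.05 on ribosomes.

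Among small heat shock proteins, HSPB1 fell furthest, with the lowest ribosomal fold change of all members. HSPB1, known as HSP27, holds unfolded proteins and guards actin, and it was at 369, 383 and 358 CPM in ESC and 66.3, 82.9 and 93.2 CPM in NPC. The fold change was -2.17 ± 0.21 (adjusted p = 5.21e-06), and RIBO_ESC replicate 2 was close to its fellows here. In RNA it was at 24.2, 32.6 and 6.81 CPM in ESC and 7.82, 8.002 and 6.42 CPM in NPC. ESC replicate 3 lay among the NPC libraries there, and the change of -1.60 ± 0.49 (adjusted p = 0.0244) lost its call when any library other than ESC replicate 3 was left out. HSPB8, which works with the autophagy co-chaperone BAG3, was at 19.8, 17.4 and 16.9 CPM in ESC and 12.7, 11.4 and 9.42 CPM in NPC in RNA, all NPC libraries lower (-0.76 ± 0.16, adjusted p = 0.00478). On ribosomes it did not pass (-0.71 ± 0.36, adjusted p = 0.112), and it fell without ESC replicate 2, at -0.89 (adjusted p = 0.0312). HSPB11, whose protein belongs to the intraflagellar transport complex of cilia, rose in RNA and fell on ribosomes, at 6.396, 7.76 and 9.57 CPM in ESC and 13.7, 12.5 and 13.4 CPM in NPC in RNA. On ribosomes HSPB11 was at 20.2, 33.4 and 20.5 CPM in ESC and 9.47, 12.5 and 14.8 CPM in NPC. Its fold changes were 0.67 ± 0.16 (adjusted p = 0.00931) and -0.96 ± 0.29 (adjusted p = 0.0124), and its efficiency fell, at -1.68 ± 0.36 (adjusted p = 0.00159). The RNA call was lost without ESC replicate 1 (0.51, adjusted p = 0.0511) and the ribosomal call without NPC replicate 1 (-0.82, adjusted p = 0.0582). HSPB2 and HSPB3 had 0 counts in all 12 libraries, and HSPB6, HSPB7 and HSPB9 had 3 to 27 counts in each group of 3 libraries.

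The main J-domain partners of cytosolic HSP70 differed. DNAJA1 was at 92.7, 103 and 130.5 CPM in ESC and 101, 104 and 112 CPM in NPC in RNA. On ribosomes DNAJA1 was at 230.4, 115 and 224 CPM in ESC and 168, 226 and 173 CPM in NPC, with overlap in both (-0.11 ± 0.13, adjusted p = 0.511 and 0.04 ± 0.25, adjusted p = 0.913). DNAJA2, of the same class, was at 186, 173 and 257 CPM in ESC and 134, 138 and 145 CPM in NPC in RNA. On ribosomes DNAJA2 was at 392, 162 and 368 CPM in ESC and 82.2, 126 and 104 CPM in NPC. It fell in both without overlap, at -0.63 ± 0.14 (adjusted p = 0.0066) and -1.52 ± 0.29 (adjusted p = 0.000796). Its efficiency fell too (-0.94 ± 0.35, adjusted p = 0.0425), a call lost in 9 of the 12 fits without 1 library (adjusted p from 0.0649 to 0.112). DNAJB1, the heat-inducible HSP40, was at 101, 103 and 74.4 CPM in ESC and 102, 105 and 101 CPM in NPC in RNA. On ribosomes DNAJB1 was at 31.6, 30.1 and 37.1 CPM in ESC and 40.6, 40.1 and 40.4 CPM in NPC and passed in neither, although on ribosomes all NPC libraries were the higher ones (0.07 ± 0.15, adjusted p = 0.704 and 0.33 ± 0.19, adjusted p = 0.152). DNAJA4, at low counts, had 363 counts over the ESC libraries and 101 over the NPC libraries in RNA, a fold change of -2.45 ± 0.27 (adjusted p = 0.000162), and 31 and 4 counts on ribosomes. It is named after its value was seen, as the lowest RNA fold change of all members.

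DNAJB6, which suppresses aggregation of polyglutamine proteins, had the lowest adjusted p of all members in RNA, at 389.6, 379.9 and 435 CPM in ESC and 119.7, 124 and 129 CPM in NPC. It fell, at -1.76 ± 0.09 (adjusted p = 2.69e-06), a 3.39-fold difference. On ribosomes the states overlapped, at 42.4, 37.97 and 50.2 CPM in ESC and 46.7, 33.6 and 43.6 CPM in NPC (-0.04 ± 0.21, adjusted p = 0.891), and its efficiency rose by 1.68 ± 0.24 (adjusted p = 7.27e-05). DNAJB14, an ER membrane protein whose J domain faces the cytosol, rose on ribosomes from 16.9, 18.6 and 17.2 CPM to 40.9, 39.9 and 37.7 CPM (1.204 ± 0.20, adjusted p = 0.000313). Its RNA was at 18.1, 17.6 and 28.2 CPM in ESC and 21.6, 20.3 and 22.3 CPM in NPC, with no call (-0.05 ± 0.18, adjusted p = 0.828), and its efficiency rose (1.22 ± 0.29, adjusted p = 0.0036). DNAJB5 rose on ribosomes in the same way, from 28.02, 19.4 and 31.6 CPM to 59.6, 59.2 and 62.01 CPM (1.22 ± 0.21, adjusted p = 0.000326). Its RNA was at 24.4, 28.2 and 19.1 CPM in ESC and 30.6, 29.1 and 28.6 CPM in NPC (0.23 ± 0.17, adjusted p = 0.281). DNAJB2, a neuronal J-domain protein that binds ubiquitin, was at 37.5, 36.2 and 24.99 CPM in ESC and 51.7, 47.5 and 46.8 CPM in NPC in RNA. On ribosomes DNAJB2 was at 23.8, 19.8 and 23.9 CPM in ESC and 13.4, 14.8 and 14.4 CPM in NPC, higher in NPC in RNA and lower on ribosomes in every library.

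The calls of DNAJB2, 0.49 ± 0.18 (adjusted p = 0.0455) and -0.63 ± 0.21 (adjusted p = 0.0226), were each lost without single libraries: in RNA without any NPC library (adjusted p from 0.0885 to 0.138) and on ribosomes without any library other than ESC replicate 2 (0.0525 to 0.0775). Its fall in efficiency (-1.18 ± 0.26, adjusted p = 0.00216) passed in every alternative fit. DNAJB4, a cytosolic J-domain protein, rose in RNA from 6.89, 7.22 and 10.9 CPM to 13.5, 14.7 and 15.02 CPM (0.73 ± 0.18, adjusted p = 0.0109), and without ESC replicate 1 or 2 it did not pass (adjusted p = 0.0635 and 0.0531). Its efficiency fell (-0.86 ± 0.33, adjusted p = 0.0429), a call lost in 9 of the 12 fits without 1 library (adjusted p from 0.0654 to 0.102) and with the replicate block (0.052). DNAJB12 passed in neither assay with all libraries. It fell in RNA without ESC replicate 3 (-0.285, adjusted p = 0.00202) and on ribosomes without NPC replicate 3 (-0.72, adjusted p = 0.0451). Of 13 DNAJB genes, 4 of 10 tested rose and 1 fell in RNA, and 2 of 9 rose and 3 fell on ribosomes. These counts moved with single libraries: in RNA 2 rose without ESC replicate 1, 2 fell without ESC replicate 2 and 3 without ESC replicate 3. In RNA 2 also fell with the replicate block, DESeq2 or no filter. On ribosomes 1 fell without ESC replicate 3 or NPC replicate 2. DNAJB13, known from sperm tails and cilia, had 4 counts over the ESC and 68 over the NPC libraries in RNA. It passed the filter on low counts through NPC alone, so its place among the 10 rises in RNA is given as a description, and it was named after its value was seen. DNAJB3 and DNAJB7 had 0 counts in every library and DNAJB8 1 count.

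DNAJC genes, J-domain proteins with varied partners, moved in both directions. Of 22 tested on ribosomes 8 rose and 7 fell, and efficiency rose for 7 and fell for 5, whereas in RNA 4 of 26 rose and 6 fell. The ribosomal rises include DNAJC24 and DNAJC25, and the falls include DNAJC30. These genes passed the filter on low counts through the state where they were higher, so their part in the counts is a description. DNAJC25 and DNAJC30 are in the efficiency counts as well. In RNA 8 rose without ESC replicate 3 and 3 fell without NPC replicate 1, and on ribosomes 3 fell without NPC replicate 3. DNAJC21, a factor of large ribosomal subunit maturation, showed the largest rise in efficiency of all members. It was at 34.5, 22.7 and 33.5 CPM in ESC and 121, 113 and 87.6 CPM in NPC on ribosomes, a rise of 1.86 ± 0.22 (adjusted p = 2.59e-05) that held in every alternative fit. Its RNA was at 23.2, 22.1 and 33.9 CPM in ESC and 20.4, 17.7 and 23.4 CPM in NPC, with no call (-0.43 ± 0.18, adjusted p = 0.0854). In RNA it fell when the replicate number was a block (-0.42, adjusted p = 0.0333) and without ESC replicate 3 (-0.23, adjusted p = 0.0309). Efficiency rose by 2.24 ± 0.30 (adjusted p = 3.79e-05). DNAJC25 rose on ribosomes from 2.61, 2.89 and 4.16 CPM to 14.1, 12.5 and 8.76 CPM (1.87 ± 0.35, adjusted p = 0.000739). It passed the filter on low counts there through the NPC libraries, so this rise is given as a description. DNAJC5, the cysteine string protein of synaptic vesicles, rose on ribosomes from 22.2, 12.8 and 20.2 CPM to 37.9, 45.3 and 56.6 CPM (1.37 ± 0.24, adjusted p = 0.000415), with RNA at 140.4, 139 and 98.8 CPM in ESC and 162, 167 and 158 CPM in NPC (0.29 ± 0.15, adjusted p = 0.142) and a rise in efficiency of 1.02 ± 0.28 (adjusted p = 0.00894).

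DNAJC8, which is bound to the spliceosome, joined DNAJC2 in falling in RNA and rising on ribosomes. It was at 151, 164 and 206 CPM in ESC and 125, 134 and 130.5 CPM in NPC in RNA (-0.48 ± 0.12, adjusted p = 0.0101) and at 11.1, 7.43 and 8.595 CPM in ESC and 18.3, 17.6 and 12.8 CPM in NPC on ribosomes (0.87 ± 0.27, adjusted p = 0.0148). The RNA call was lost without NPC replicate 1 (-0.45, adjusted p = 0.0517), and the ribosomal call without ESC replicate 3 (0.80, adjusted p = 0.0546) or NPC replicate 1 (0.77, adjusted p = 0.0594). Its rise in efficiency (1.31 ± 0.29, adjusted p = 0.00203) held. DNAJC24, which acts in diphthamide synthesis, also rose on ribosomes (1.15 ± 0.40, adjusted p = 0.0258), and lost that call without ESC replicate 1 or NPC replicates 1 or 2 (adjusted p from 0.0584 to 0.104). It passed the filter on low counts there through the NPC libraries, so this rise is given as a description. In RNA DNAJC24 did not pass (0.43 ± 0.19, adjusted p = 0.0948), and it rose without ESC replicate 3 (0.65, adjusted p = 3.71e-06). In the other direction, DNAJC9, a chaperone of histones, fell on ribosomes from 74.6, 46.6 and 57.95 CPM to 21.4, 15.1 and 19.6 CPM (-1.63 ± 0.23, adjusted p = 9.72e-05). Its RNA overlapped and did not pass, at 52.00, 51.98 and 61.2 CPM in ESC and 48.9, 52.9 and 53.5 CPM in NPC (-0.16 ± 0.11, adjusted p = 0.256), and its efficiency changed by -1.53 ± 0.26 (adjusted p = 0.000324).

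DNAJC16 and DNAJC14 fell on ribosomes while their RNA did not pass. DNAJC16 was at 58.00, 68.1 and 66.8 CPM in ESC and 39.4, 32.2 and 34.1 CPM in NPC (-0.83 ± 0.20, adjusted p = 0.00332). DNAJC14 was at 32.3, 26.00 and 24.7 CPM in ESC and 18.02, 14.8 and 12.4 CPM in NPC (-0.84 ± 0.24, adjusted p = 0.00876). The RNA of DNAJC16 was at 44.5, 40.6 and 43.98 CPM in ESC and 45.8, 47.6 and 49.4 CPM in NPC. That of DNAJC14 was at 53.8, 48.9 and 47.7 CPM in ESC and 53.6, 52.00 and 54.2 CPM in NPC, and efficiency fell for both (-0.96 ± 0.23, adjusted p = 0.00334 and -0.92 ± 0.25, adjusted p = 0.00928). The ribosomal call of DNAJC14 was lost without NPC replicate 3 (-0.68, adjusted p = 0.0578). DNAJC30 fell on ribosomes as well (-1.75 ± 0.44, adjusted p = 0.00446), on 5.27 to 7.84 CPM in ESC and 1.42 to 3.05 CPM in NPC, and had the lowest efficiency change of all members (-2.35 ± 0.46, adjusted p = 0.000836), named after its value was seen. DNAJC30 passed the filter on low counts on ribosomes through the ESC libraries, so these 2 falls are given as a description. In RNA DNAJC30 did not pass with all libraries (0.53, adjusted p = 0.0702), and it rose with the replicate block (0.56, adjusted p = 0.0215). It also rose there without ESC replicate 2 (0.64, adjusted p = 0.0494) or 3 (0.33, adjusted p = 0.0108), and with no filter (adjusted p = 0.0428). Among rises in RNA, DNAJC18 went from 18.6, 19.8 and 25.3 CPM to 36.5, 45.4 and 42.99 CPM (0.91 ± 0.15, adjusted p = 0.00137) with no call on ribosomes (0.17 ± 0.22, adjusted p = 0.508). DNAJC6, the neuronal auxilin that uncoats clathrin vesicles, went from 11.4, 12.4 and 13.8 CPM to 20.8, 18.3 and 20.6 CPM (0.60 ± 0.13, adjusted p = 0.0056), with no call on ribosomes either (0.05 ± 0.32, adjusted p = 0.909). The efficiency of DNAJC18 fell (-0.78 ± 0.28, adjusted p = 0.036), a call lost in 8 of the 12 fits without 1 library (adjusted p from 0.0541 to 0.0934). DNAJC27 rose in RNA, DNAJC7, a J-domain protein that binds HSP70 and HSP90, fell in both assays, and DNAJC13, a protein of endosomes, fell in RNA. The RNA call of DNAJC13 was lost without any NPC library (adjusted p from 0.0893 to 0.123), that of DNAJC27 without any library but ESC replicate 3 (0.0505 to 0.121), and the ribosomal call of DNAJC7 without NPC replicate 3 (-0.71, adjusted p = 0.0527). DNAJC4, DNAJC12, DNAJC17, DNAJC22 and DNAJC28 passed in no test they entered with all libraries. DNAJC12 rose in RNA without ESC replicate 3 (0.76, adjusted p = 0.0282).

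Efficiency set the families side by side. It fell for 7 of 8 TRiC subunits, 1 of 12 HSPA genes and 1 of 3 HSPB genes, and it moved both ways among DNAJB genes (3 rose, 4 fell of 9, or 2 fell without RNA_NPC replicate 3) and DNAJC genes (7 rose, 5 fell of 22). The 3 HSP90 genes had the highest family median, 0.86, yet none of them passed. That median was 0.58 to 1.02 with 1 library left out and 0.37 without both ESC libraries that stood apart. HSP90B1 passed without both, at 0.89 (adjusted p = 3.16e-05), without RIBO_ESC replicate 2 (1.17, adjusted p = 0.00396) and without RNA_ESC replicate 1 (1.02, adjusted p = 0.0403). For HSP90AA1 the efficiency rose by 1.17 (adjusted p = 0.0477) when RNA_ESC replicate 1 was left out. It rose by 1.25 (adjusted p = 0.0293) when RIBO_ESC replicate 1 was left out. With no filter on low counts HSP90B1 and HSP90AA1 both passed (adjusted p = 0.0387 and 0.0392). For HSPA genes, 2 fell without RNA_ESC replicate 3 or RIBO_ESC replicate 2 alone, and 5 without both. Those 5 were HSPA14, HSPA8 (-0.54, adjusted p = 0.00323), HSPH1 (-0.71, adjusted p = 0.000219), HSPA9 (-0.92, adjusted p = 5.24e-06) and HSPA13 (-0.45, adjusted p = 0.0131).

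**Figure D4:**
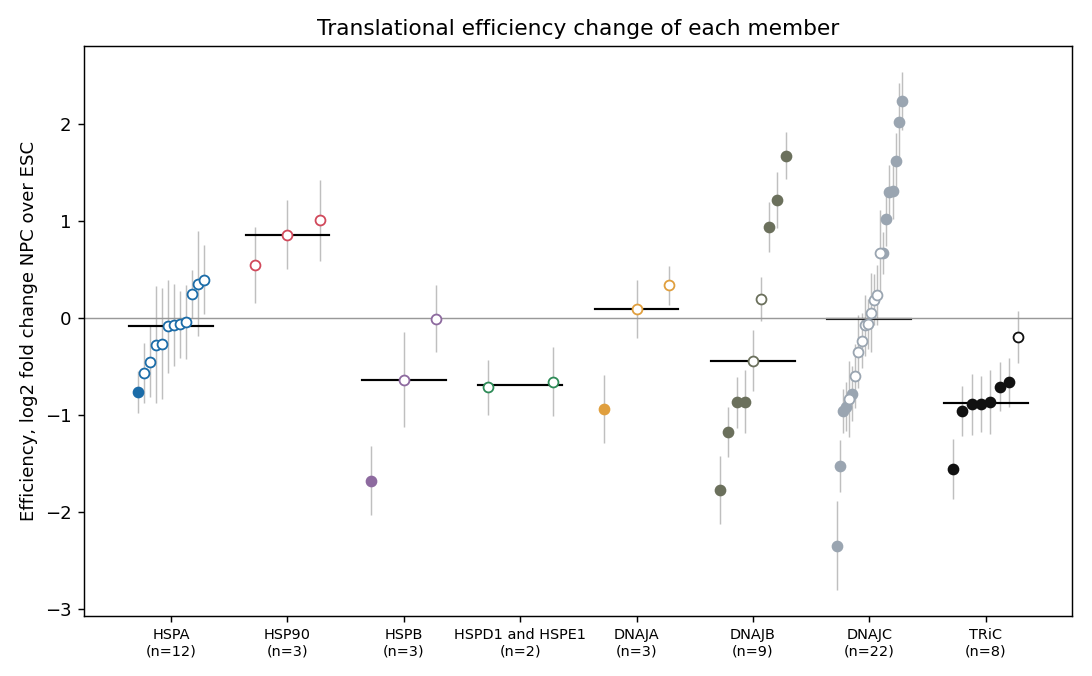
Change in translational efficiency of the 62 members tested, by family. The y axis is the log2 fold change of NPC over ESC, points are genes with their standard errors, filled where the adjusted p was under 0.05, and black lines are family medians. TRiC subunits lie between -1.56 and -0.20, HSP90 genes between 0.55 and 1.01 with none passing, and DNAJC genes between -2.35 and 2.24. The lowest DNAJC point is DNAJC30, which passed the filter on low counts on ribosomes through the ESC libraries and is a description.

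**Figure D5:**
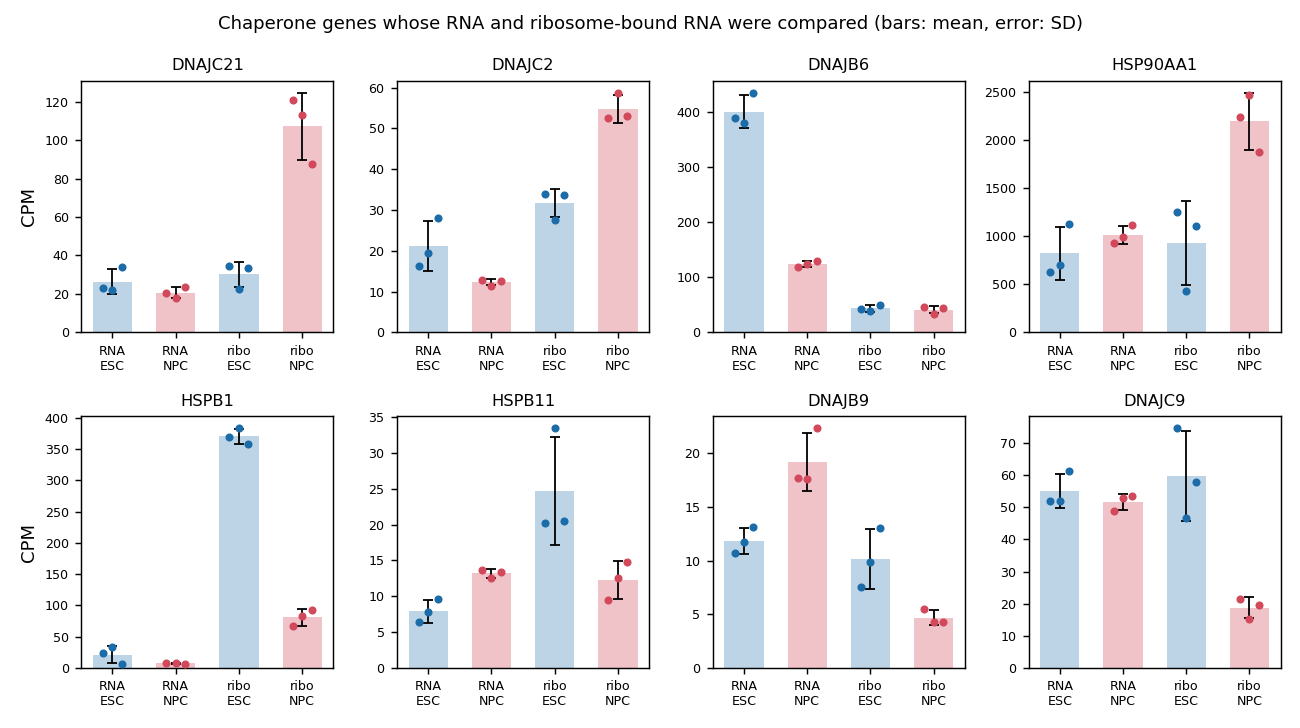
RNA and ribosome-bound RNA (ribo) of 8 members in CPM, with bars for the mean of 3 libraries, error bars for the SD and points for libraries, each panel on its own scale from 0. DNAJC21 and HSP90AA1 rise on ribosomes with overlapping RNA levels, DNAJC2 falls in RNA and rises on ribosomes, DNAJB6 falls in RNA alone, HSPB1 falls in both, DNAJC9 falls on ribosomes, and HSPB11 and DNAJB9 rise in RNA and fall on ribosomes.

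The factors that act on the heat shock elements rose where they changed. HSF2, a heat shock factor active in development, rose in RNA by 1.35 (adjusted p = 8.31e-05) and on ribosomes by 0.90 (adjusted p = 0.00336), and HSF1, the main stress-responsive factor, rose on ribosomes by 0.78 (adjusted p = 0.00291) with no call in RNA. HSF4 and HSF5 were too low to test. The members with an exact match to the heat shock element in their window did not share a direction. In RNA, DNAJB6, HSPD1, HSPA8 and HSP90AB1 fell, and HSP90AA1 and DNAJA1 did not pass. On ribosomes HSP90AA1 rose, HSPD1 fell, and the other 4 that were tested did not pass.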

How the data were processed

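Gene-level counts of 12 libraries were deposited by the authors as raw counts, and 0 of the count columns were left unused. Per the submitters' processing notes, the tools were cutadapt 1.18, Bowtie 1.2, STAR 2.7.1a and featureCounts 1.6.4 with build GRCh38 (hg38). The sources used here do not give their roles, the annotation release, the strand and multi-mapping settings or the way ribosome-bound RNA was isolated. Reads of near-identical genes may therefore be split. Members and gene lists were chosen with earlier results of these data known.

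Counts were fitted with edgeR 4.0.16 (R 4.3.3) after filterByExpr and TMM scaling, by the quasi-likelihood test with Benjamini-Hochberg adjustment over all genes tested, at 0.05. Each assay was fitted on its 6 libraries, and translational efficiency as an interaction over 12. The procedure was run on simulated counts drawn independently for each library, so that simulation does not bear on libraries that stand apart. CPM used unscaled library totals, and log2 ratios of CPM added 0.5 CPM. A count of 0 allows up to 3 counts, 0.0854 to 0.154 CPM in RNA and 0.674 to 1.24 CPM on ribosomes, for counting error only. Values per library were given for a set list of members and for the 8 largest rises and falls that passed in each comparison, where the state with more had a mean of 10 CPM or above (for efficiency, 5 CPM in every group). Deviations of same-numbered RNA libraries of both states correlated across genes at 0.369, 0.250 and 0.584. Replicates 1 and 2 were not told apart by number: ESC 2 with NPC 1 gave 0.391 and ESC 1 with NPC 2 gave 0.254. Replicate 3 of either state correlated at -0.548 to -0.272 with replicates 1 and 2 of the other. Blocked values stand beside RNA results whose call they change. The ribosome-bound libraries (-0.162, -0.255 and -0.007) did not pair. Alternatives were DESeq2 1.42.0, RLE size factors, no filter, the replicate block and each library left out. Python 3.11.15, pandas 2.3.3, numpy 2.4.6 and matplotlib 3.10.9 made the summaries and figures.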

Additional observations from a re-analysis of the deposited data

How the results depend on the processing

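With 1 library left out, the number of members that rose in RNA ran from 6 (without RNA_ESC replicate 1) to 16 (without RNA_ESC replicate 3) around 10, and the number that fell from 18 to 33 around 26. On ribosomes 10 to 14 rose and 18 to 30 fell, around 11 and 25. Efficiency rose for 9 to 11 and fell for 10 (without RNA_NPC replicate 3) to 22 (without RNA_ESC replicate 3), around 10 and 19, and it fell for 27 without both ESC libraries that stood apart. Such a fit has fewer samples, and beyond that the cause was not tested. DESeq2 gave 10 rises and 29 falls in RNA, 11 and 25 on ribosomes and 10 and 20 for efficiency. RLE size factors gave 28 falls in RNA, and with no filter on low counts efficiency fell for 14. With the replicate block, 11 rose and 29 fell in RNA, 10 and 19 on ribosomes, and 10 and 17 in efficiency. The block let DNAJB11, DNAJC21, DNAJC30 and HSP90B1 pass in RNA and changed no other RNA call of a member.

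Of the results of named members, 100 were called in at least 1 fit, and 38 in none, of which 22 changed sign. Over the alternatives of the former, 1058 values kept direction and side of the threshold, 134 lost a call, 40 gained one and 6 changed sign. Signs changed for HSPA4 on ribosomes (-0.510 to 0.016 without 1 library), HSPH1 efficiency (-0.49 to 0.20) and HSPA8 efficiency (-0.44 to 0.19), none of them called with all libraries. Totals of the ribosome-bound libraries were lower, so their low values carry more counting error.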
